A study of Mus musculus with 6 samples.

Results

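A set of 9 genes of the central-vein side of the mouse liver lobule, most of them known to depend on Wnt signalling, were followed through 6 liver RNA-seq libraries. They were chosen by symbol: the enzymes Glul, Cyp2e1, Cyp1a2 and Oat, the transporters Slc1a2 and Rhbg, and the pathway genes Axin2, Lgr5 and Tbx3. All 9 were found among 18444 genes listed in at least 1 library, and all 9 were detected in every library. The libraries came from livers of male C57BL/6 mice (C57BL/6J in the methods) in a pair of disease models. The labels give an age of 6 to 8 weeks, and the methods give this age for the mice used. In the diet model mice had a standard diet (SD, the chow control of the labels), a high-fat diet (HFD), or HFD plus JT003, a peptide made to activate the adiponectin receptors AdipoR1 and AdipoR2. In the methods of the study the diets lasted 16 weeks and JT003 was given in the last 4. In the fibrosis model mice were injected every 3 days for 6 weeks with corn oil or with CCl4 in corn oil, and the third group received CCl4 and, for 3 weeks, JT003. The labels call the HFD livers NASH, while the methods call the 16-week diet a model of non-alcoholic fatty liver disease. Each condition had 1 library, so no difference below has a replicate check, and whether a library held RNA of 1 mouse or of several is not stated in the sources used here. The time from the last CCl4 injection to sampling is not stated there either. Nor is the age at sampling. The diets lasted 16 weeks and the injections 6, so the age of 6 to 8 weeks is read as that at the start.

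Liver lobules are zoned. Hepatocytes next to the central vein receive Wnt ligands and R-spondins from neighbouring endothelial cells, and β-catenin with TCF/LEF factors then keeps a set of genes active there. Glul encodes glutamine synthetase, which captures ammonia in the last rows of cells before the vein, and Slc1a2, Rhbg and Oat serve the same nitrogen handling as a glutamate transporter, an ammonium transporter and ornithine aminotransferase. Cyp2e1 encodes the cytochrome P450 that converts CCl4 to its toxic radical, and Cyp1a2 encodes another pericentral P450. Axin2 is a feedback inhibitor and widely used reporter of Wnt signalling, Lgr5 is an R-spondin receptor, and Tbx3 is a transcription factor of the pathway. Periportal hepatocytes at the other end of the lobule carry out urea synthesis and gluconeogenesis.

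The 6 libraries held 19374236 to 20184557 assigned reads. FPKM is the deposited number of fragments per kilobase of transcript, scaled to library size. Differences are log2 ratios of reads after TMM scaling, a correction for library composition, with 95% Clopper-Pearson intervals that cover counting error only. A gene was called when a two-sided exact binomial test of its reads between a pair of libraries gave a Benjamini-Hochberg adjusted p below 0.001 and the log2 ratio was at least 1 in size. Such a call compares a pair of libraries, not the conditions. Genes of all hepatocytes (9 of the 10 listed symbols were found, among them Alb, Apoa1 and Hnf4a) had no call between any pair of the 6 libraries compared and summed to 86980 to 114100 CPM, the usual count unit scaled to library size but not to gene length.

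Per transcript length, Cyp2e1 was the highest of the 9 genes in every library. It made up 73.2% to 89.1% of their summed FPKM, which was 4744 in SD, 6063 in HFD, 8600 in HFD plus JT003, 5671 in corn oil, 1507 in CCl4 and 2560 with JT003 added. In the 4 libraries without CCl4, Glul, Oat and Cyp1a2 came next, followed by Slc1a2 and Tbx3, and Axin2, Rhbg and Lgr5 lay below 6 FPKM. In both CCl4 libraries the order was different: Cyp1a2 stood second, and Slc1a2 was last. Between its lowest and highest library Slc1a2 spanned 796-fold in FPKM, Oat 25.8-fold and Glul 14.6-fold. The other members spanned less, from 2.28-fold for Tbx3 to 6.72-fold for Cyp2e1. The counts of Cyp2e1, Cyp1a2, Lgr5 and Slc1a2 were not whole, so some of their reads were shared with other genes by estimation.

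**Figure D1:**
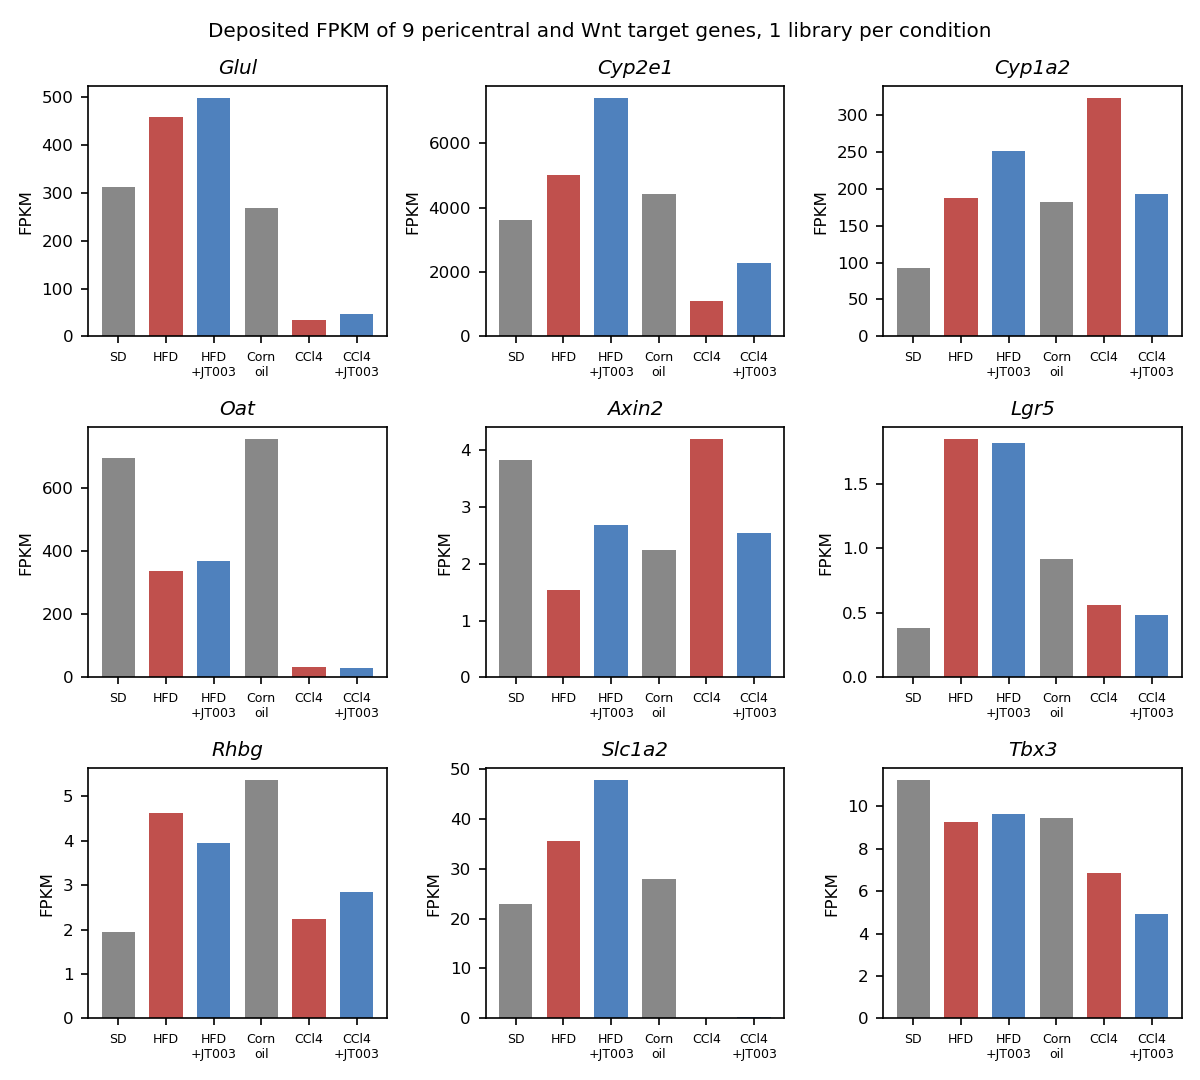
Deposited FPKM (y axis, from 0, a separate scale in each panel) of the 9 genes in the 6 libraries (x axis), 1 bar per library and no error bars because each condition had 1 library. Glul, Oat and Slc1a2 are near the axis in both CCl4 libraries, at 34.22, 32.41 and 0.06 FPKM with CCl4, whereas Cyp1a2 and Axin2 are highest in the CCl4 library, at 323.48 and 4.20.

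Since most members are known Wnt targets, the 250 bases before the annotated start were searched for CTTTGA or its reverse complement TCAAAG, the core of the site that TCF/LEF factors bind. RefSeq windows (GRCm38.p6) were at hand for 6 members. The letters occurred in 3 of these 6 and in 13.8% of 32851 promoter windows of the same length. Glul, Oat and Axin2 had no match in this window, and Lgr5, Rhbg and Tbx3 were not searched. Cyp2e1 had 1 match, starting 135 bases before the start (chr7:140763569-140763818, plus strand), Cyp1a2 had 1 at 243 bases (chr9:57683656-57683905, minus strand) and Slc1a2 had 2, at 206 and 77 bases (chr2:102706188-102706437, plus strand). The windows with a match are given 5′ to 3′ on the gene's strand with the matched letters in capitals. They are shown because the 3 genes went different ways with CCl4, with Slc1a2 and Cyp2e1 lower and Cyp1a2 at a log2 ratio of 0.59. A match is a run of letters and was not tested as a binding site.
Cyp2e1: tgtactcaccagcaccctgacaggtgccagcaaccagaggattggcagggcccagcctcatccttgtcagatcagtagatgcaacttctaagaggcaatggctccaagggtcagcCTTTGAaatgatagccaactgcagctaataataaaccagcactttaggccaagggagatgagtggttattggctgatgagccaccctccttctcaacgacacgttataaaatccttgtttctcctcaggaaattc
Cyp1a2: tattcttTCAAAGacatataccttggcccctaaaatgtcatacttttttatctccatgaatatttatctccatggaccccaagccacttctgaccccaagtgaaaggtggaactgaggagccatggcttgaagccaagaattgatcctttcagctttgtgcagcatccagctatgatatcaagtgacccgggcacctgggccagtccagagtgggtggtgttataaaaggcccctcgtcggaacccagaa
Slc1a2: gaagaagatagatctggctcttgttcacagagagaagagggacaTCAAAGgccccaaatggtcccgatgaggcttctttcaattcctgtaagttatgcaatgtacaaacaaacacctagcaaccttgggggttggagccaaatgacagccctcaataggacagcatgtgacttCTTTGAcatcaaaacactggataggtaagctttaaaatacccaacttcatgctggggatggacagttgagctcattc

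Against corn oil, the CCl4 library had far fewer reads of the nitrogen-handling genes and of Cyp2e1. Slc1a2 was lowest relative to its control, then Oat, Glul, Cyp2e1 and Rhbg. These 5 members were called lower and none was called higher. Of all 17234 genes tested, 2.46% were called lower and 4.8% higher. Cyp1a2, Axin2, Lgr5 and Tbx3 were not called.

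Slc1a2, the glutamate transporter that accompanies glutamine synthetase around the central vein, had 3513 reads in corn oil and 6 in CCl4, a log2 ratio of -9.03 (interval -10.93 to -8.36). Its FPKM went from 27.83 to 0.06, and the transcript length estimated for it differed between these libraries, 6386.32 against 5342.78 bases, which enters its FPKM. Oat had 31746 reads in corn oil and 1413 in CCl4, 27.4-fold fewer after scaling (log2 ratio -4.78, interval -4.86 to -4.70). Glul had 14862 and 1962 reads (268.44 and 34.22 FPKM), 9.24-fold fewer, with a log2 ratio of -3.21 (interval -3.28 to -3.14). These 3 genes of glutamate and glutamine handling had the log2 ratios largest in size among the 9 members in this comparison.

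Cyp2e1, although called lower, was still among the most abundant messages of the CCl4 liver. It had 151340 reads in corn oil and 39104 in CCl4, a log2 ratio of -2.24 (interval -2.26 to -2.22), and ranked 62 by FPKM among the genes of the CCl4 library, against 25 in corn oil. Rhbg, the ammonium transporter, had 200 and 86 reads and a log2 ratio of -1.48 (interval -1.89 to -1.13). Its call was lost in edgeR's exact test when a coefficient of variation between mice of 0.2 or 0.4 was assumed. Rhbg had 75 reads in SD, so corn oil was the higher of the controls for it.

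Cyp1a2 and Axin2 went the other way without passing the fold threshold. Cyp1a2 had 6742 reads in corn oil and 12354 in CCl4, a log2 ratio of 0.59 (interval 0.54 to 0.63). Axin2, the feedback inhibitor, had 190 and 367 reads and a log2 ratio of 0.66 (interval 0.40 to 0.92). It had 334 reads in SD, so corn oil was the lower of the controls for it. Lgr5 had 85 and 54 reads (log2 ratio -0.92, interval -1.46 to -0.43), and Tbx3 had 871 and 658 (log2 ratio -0.69, interval -0.84 to -0.55). The 3 pathway genes therefore had smaller log2 ratios than the called enzymes and transporters, and not all of one sign. In bulk liver, fewer pericentral cells and less RNA per cell cannot be told apart.

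A second source of CCl4 reads was available. One deposited comparison table lists a pooled CCl4 count, 2.97 times the CCl4 library in total, and subtracting that library leaves 39780549 counts. How many mice or libraries these stand for is not given in the sources used here, so they serve as a second reading rather than a replicate with an error. Over 11202 genes with at least 100 counts, the remainder and the CCl4 library differed by a median of 0.21 in log2 size, and 2.08% of the genes differed by more than 1.

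In these remaining reads the same 5 members were called lower than in corn oil: Slc1a2 at -7.93, Oat at -4.30, Glul at -3.33, Cyp2e1 at -2.66 and Rhbg at -1.46 on the log2 scale. Tbx3, at -1.01, was also called there. Over all genes 468 were called lower and 1251 higher with these reads. Both readings use the same corn oil library, so a deviation of that library enters both alike. The log2 ratio of Cyp1a2 was 0.30 and that of Lgr5 was -0.84. For Axin2 it was 0.21, with an interval from -0.03 to 0.45 that included no difference. Slc1a2 had 34 of the remaining reads, or 0.855 CPM, against 0.298 in the CCl4 library and 181.0 in corn oil.

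**Figure D2:**
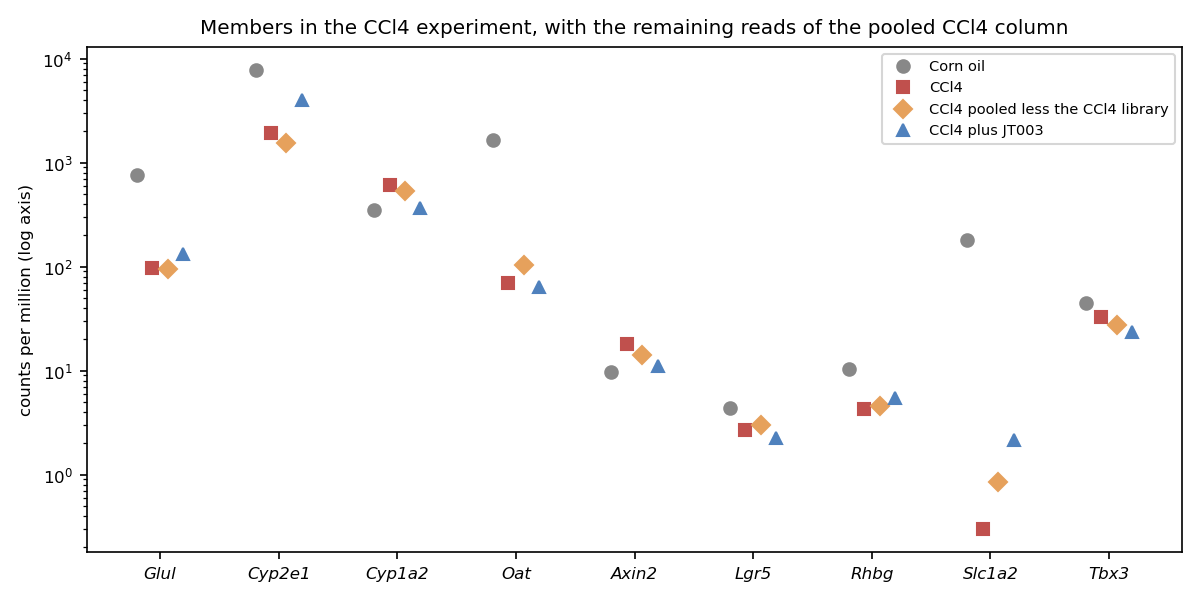
CPM (log y axis) of the 9 genes (x axis) in the corn oil library, the CCl4 library, the reads left in the pooled CCl4 column after subtracting that library, and the CCl4 plus JT003 library, with 1 point per source and no error bars. For Slc1a2, Oat, Glul, Cyp2e1 and Rhbg the corn oil point lies above the other 3, and the CCl4 and remainder points of Glul nearly coincide at 97.3 and 94.9.

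The larger pericentral programme was less uniform. Of 15 other pericentral genes, 5 were called lower with CCl4 and none higher, and the median log2 ratio was -0.56, against 0.00 over all genes tested. The 5 were Slc22a3, an organic cation transporter, from 190 to 12 reads, Cyp2a5 from 4395 to 1108, Cyp2c37 from 4042 to 1238, Cyp7a1, the rate-limiting enzyme of bile acid synthesis, from 1387 to 605, and the carboxylate transporter Slc13a3 from 163 to 98. In the remaining pooled reads 5 of the 15 were again called lower, Nr1i3 among them at -1.04, but Slc13a3 was not, at -0.06 (interval -0.33 to 0.21). Of the genes called higher in HFD, Cyp7a1, Cyp2a5 and Slc13a3 were among those called lower with the CCl4 library. Cyp2c50 was at -0.71 with CCl4 and -0.89 in the remaining reads. Aldh1a1, Rgn, Lect2 and Ahr, also called higher in HFD, had log2 ratios of 0.22, 0.11, 0.75 and 0.00 with CCl4. Of the 12 periportal genes, Asl and Sds were called lower and Cdh1 higher, with a median of -0.18. In the remaining pooled reads the periportal median was -0.50, next to -0.52 for the other pericentral genes, so the gap between the medians rested on the CCl4 library, and Sds was not called there, at -0.67. The 9 genes of all hepatocytes had a median of -0.15, and of 0.14 in the remaining reads, where Cebpa was called lower.

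Wnt pathway genes were called in both directions with CCl4, where 2.46% of all genes tested were called lower and 4.8% higher. Among the 7 ligands and R-spondins, Wnt9b, a ligand of the central-vein endothelium, had 43 reads in corn oil and 12 in CCl4, and Rspo3, the R-spondin of the same cells, had 98 and 39. Both were called lower, at log2 ratios of -1.95 and -1.56, and none of the 7 was called higher. In the remaining pooled reads neither was called: Wnt9b was at -0.76 (interval -1.36 to -0.19) and Rspo3 at -0.71 (interval -1.10 to -0.34), so both calls rested on the CCl4 library. Of 11 other Wnt targets, Sp5 was called lower, from 64 to 24 reads, and Tnfrsf19 and Ccnd1 higher, Ccnd1 (cyclin D1) from 300 to 3866. The median of the 11 was 0.07. Ccnd1 had 963 reads in SD, so corn oil was the lower of the controls for it. Of 9 receptors, Fzd1 was higher (108 to 278 reads) and Fzd8 lower (208 to 94). Sp5, Ccnd1 and Fzd8 were also called in the remaining pooled reads, at -2.58, 3.21 and -1.45, while Tnfrsf19, at 0.93, and Fzd1, at 0.72, were not. None of the 7 intracellular components, such as Ctnnb1, and none of the 5 secreted inhibitors was called in any of the 4 model comparisons.

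Markers of other cells moved in the same pair of libraries. All 5 dividing-cell genes were called higher (5.93 CPM in corn oil in sum, 144.7 in CCl4), as were 4 of 5 macrophage genes (38.1 and 104.8, with SD at 135.0) and 4 of 5 cholangiocyte genes (43.9 and 164.1). Of 6 stellate cell and myofibroblast genes Col1a1 was called higher (57.6 and 192.5 for the list). None of the 6 endothelial markers had a positive log2 ratio, and Kdr was called lower, with sums of 103.0 and 70.2. In the remaining pooled reads all 5 dividing-cell genes, 4 macrophage genes and Col1a1 were called again, 2 cholangiocyte genes were, and Kdr was not, at -0.42. There 2 of the 6 endothelial markers had a positive log2 ratio, the list median was -0.12 against -0.74 with the CCl4 library, and the sum was 119.8 CPM, above corn oil. None of the 4 lymphocyte genes was called, and Cd3e was at 0 in CCl4. The part of these cells in the members' differences was not tested. Beyond counting error, edgeR's exact test with an assumed coefficient of variation between mice of 0.4 left 2 members called, Oat and Slc1a2. Over all genes this setting called 21 lower and 38 higher. The adjusted p of that test was 0.0428 for Glul and 0.505 for Cyp2e1.

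**Figure D3:**
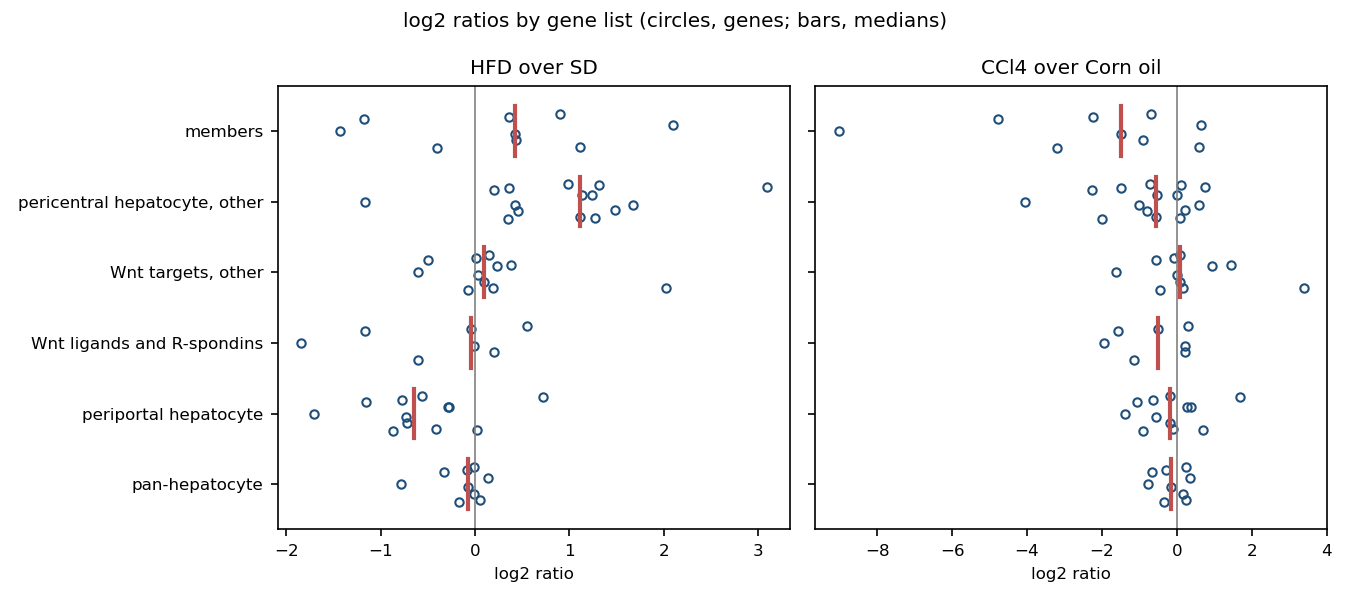
log2 ratios (x axis) of single genes (circles, spread vertically only for legibility) and list medians (red bars) for HFD over SD and CCl4 over corn oil, by gene list (y axis), where "members" are the 9 genes of this report and no error is drawn. With CCl4 the 9 genes reach -9.03 with a median of -1.48, whereas the pan-hepatocyte genes stay around a median of -0.15. With HFD the other pericentral genes have a median of 1.11 and the periportal genes one of -0.65.

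JT003 given with CCl4 was compared with CCl4 alone. One of the 9 members was called higher and none lower, where 1.91% of 17393 genes tested were called higher and 2.55% lower. This was Slc1a2, with 6 reads in CCl4 and 42 in CCl4 plus JT003, a log2 ratio of 2.45 (interval 1.56 to 4.32). Both values were far below the 3513 reads of corn oil. Against the remaining pooled CCl4 reads the log2 ratio of Slc1a2 was 1.29 (interval 0.67 to 2.05), so its size rested on the 6 reads of the CCl4 library, and with genes required to have 100 reads it was not tested.

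Cyp2e1 had 39104 reads with CCl4 and 77764 with CCl4 plus JT003 (1102.99 and 2279.79 FPKM). Its log2 ratio of 0.98 (interval 0.96 to 1.00) lay just below the threshold of 1. It was called against the remaining pooled reads, at 1.40, and when total reads or the pan-hepatocyte genes set the scale. Glul had 1962 and 2594 reads, a log2 ratio of 0.39 (interval 0.31 to 0.48), and Rhbg had 86 and 106 (0.29, interval -0.13 to 0.72). Oat stayed low, with 1413 and 1224 reads and a log2 ratio of -0.22 (interval -0.33 to -0.11).

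The members with more reads in CCl4 than in corn oil had fewer in CCl4 plus JT003 than in CCl4. Cyp1a2 had 12354 reads with CCl4 and 7071 with CCl4 plus JT003, a log2 ratio of -0.82 (interval -0.86 to -0.77). Axin2 had 367 and 214 reads (-0.78, interval -1.04 to -0.54). Both comparisons use the one CCl4 library, so a deviation of that library enters them with opposite signs. Against the remaining pooled reads the log2 ratios were smaller, -0.53 for Cyp1a2 and -0.34 for Axin2. Tbx3 had 658 and 455 reads, a log2 ratio of -0.54 (interval -0.72 to -0.37), and was lowest of all 6 libraries with CCl4 plus JT003. Lgr5 had 54 and 44 reads (-0.29, interval -0.91 to 0.30).

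Set against corn oil, the CCl4 plus JT003 library had log2 ratios of -6.61 for Slc1a2, -4.99 for Oat, -2.82 for Glul, -1.26 for Cyp2e1 and -1.20 for Rhbg. For Tbx3 the ratio was -1.23 and for Lgr5 -1.21. Cyp1a2 and Axin2 were near the control, at -0.23 and -0.13 (interval for Axin2 -0.42 to 0.16). Of the 15 other pericentral genes Cyp2a5 (1108 to 4386 reads) and Cyp7a1 (605 to 1233) were called higher with JT003 and Slc13a3 (98 to 42) lower, with a list median of -0.02. Against the remaining pooled reads these 3 were called again, at 3.14, 1.02 and -2.17, along with Nr1i3 and Cyp2c37, higher at 1.11 and 1.12. Of the Wnt pathway lists Lrp5, a co-receptor, was called lower (2980 to 1042), and also against the remaining reads, at -1.32. Among the periportal genes Sds was called higher and Cdh1 lower. Against the remaining reads Cdh1 was called again, at -1.04, Sds was not, at 0.92, and Asl was called higher, at 1.00. All 5 dividing-cell genes were called lower, from 144.7 to 19.7 CPM in sum. Col1a1 (2483 to 876 reads), Acta2 (108 to 45) and Sox9 (440 to 207) were also called lower, and against the remaining reads Col1a1 and Acta2 again, Adgre1 and Cd68 too, but not Sox9. The endothelial markers summed to 70.2 CPM in CCl4, 119.8 in the remaining reads and 110.6 in CCl4 plus JT003, so the sign of that difference depended on the CCl4 source. Their part in the members' values was not tested.

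HFD was compared with SD in the same way. Lgr5 and Rhbg were called higher, and Oat and Axin2 lower, so 4 of the 9 members were called where 2.96% of 16973 genes tested were called higher and 2.49% lower. Glul, Cyp2e1, Cyp1a2 and Slc1a2 all had positive log2 ratios below 1. Glul and the P450 genes thus had a log2 ratio of the opposite sign to the Wnt reporter Axin2.

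Lgr5, the R-spondin receptor, had 37 reads in SD and 175 in HFD, a log2 ratio of 2.09 (interval 1.63 to 2.70). Rhbg had 75 and 175 reads (1.11, interval 0.73 to 1.54). Axin2 had 334 and 131 reads (-1.43, interval -1.74 to -1.15), and Oat had 30312 and 14297 (-1.18, interval -1.20 to -1.15). The Oat difference rested on an abundant message, whereas those of Lgr5, Rhbg and Axin2 rested on at most 334 reads a library.

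Cyp1a2 had 3545 reads in SD and 7028 in HFD, a log2 ratio of 0.90 (interval 0.84 to 0.95). Scaled by total reads it was at 175.6 and 356.3 CPM, just past the fold threshold. Glul had 17991 and 25793 reads (0.43, interval 0.40 to 0.46), Slc1a2 had 3150 and 4544 (0.44, interval 0.37 to 0.50) and Cyp2e1 had 127881 and 174607 (0.36, interval 0.35 to 0.37). Tbx3 had 1078 and 869 reads (-0.40, interval -0.53 to -0.27). Of the 15 other pericentral genes 8 were called higher, with a list median of 1.11, and Slc22a3 was called lower (278 to 131 reads). They included Cyp2a5 (670 to 6101), Aldh1a1 (8701 to 29666) and Rgn (6007 to 15504), along with Slc13a3, Ahr, Lect2, Cyp2c50 and Cyp7a1. Of the 12 periportal genes the urea-cycle genes Asl (12773 to 4177) and Cps1 (72063 to 34490) were called lower and none higher, with a median of -0.65. Of the 11 other Wnt targets Tnfrsf19 was called higher (40 to 180), and of the 9 receptors Fzd6 was called lower (137 to 67). Among markers of other cells Col1a1 (178 to 899), Lrat (145 to 395), Lyve1 (144 to 330) and Ccr2 (19 to 64) were called higher, and their part in the members' values was not tested. With an assumed coefficient of variation of 0.2, edgeR's exact test called 0 members at the same threshold. It called 179 genes over all.

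**Figure D4:**
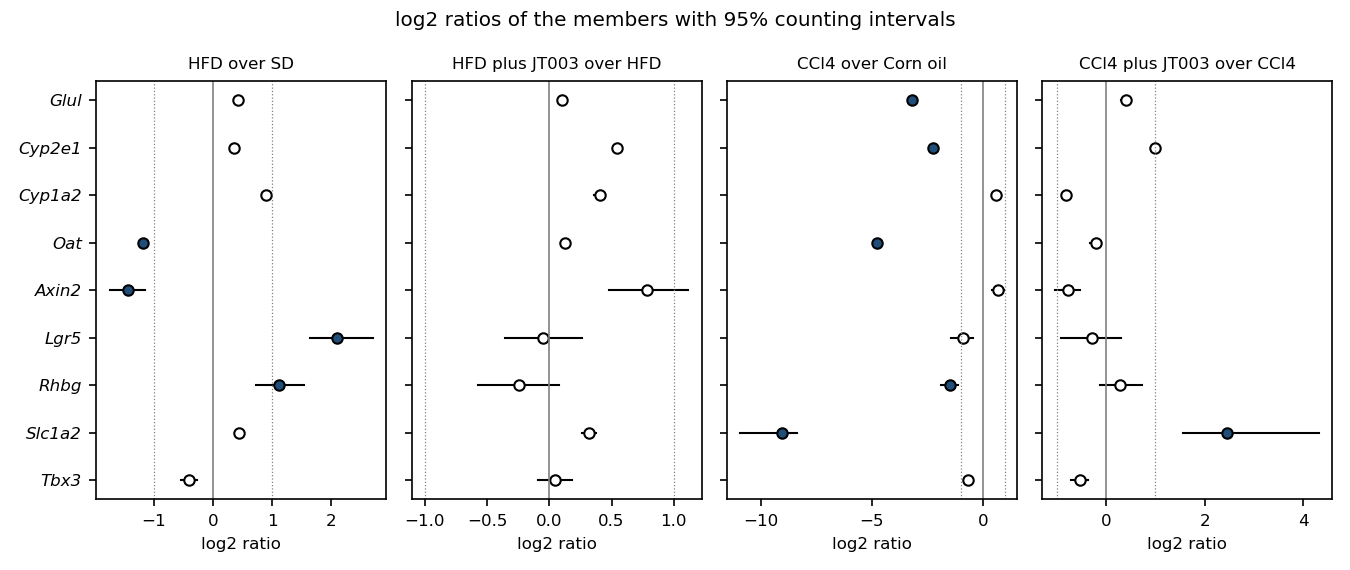
log2 ratios (x axis, a separate scale in each panel) of the 9 genes (y axis) in the 4 model comparisons, with 95% counting intervals as lines, where filled points are called and dotted lines mark a log2 ratio of 1 in either direction. Filled points number 4 for HFD over SD, 0 for HFD plus JT003 over HFD, 5 for CCl4 over corn oil, all to the left, and 1 for CCl4 plus JT003 over CCl4.

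JT003 given with HFD left all 9 members below the fold threshold. None was called against HFD alone, where 0.767% of 17090 genes tested were called higher and 0.901% lower. Without the fold threshold 6 members were called, as were 2445 of all 17090 genes tested. With an assumed coefficient of variation of 0.2, edgeR's exact test called 0 of the 9 members and 19 genes over all. The 6 were all higher with JT003. Cyp2e1 had 174607 reads in HFD and 258836 in HFD plus JT003, a log2 ratio of 0.55 (interval 0.54 to 0.55), and reached 7415.61 FPKM, its highest value. Axin2 had 131 and 231 reads (0.79, interval 0.48 to 1.12), Cyp1a2 had 7028 and 9440 (0.40, interval 0.36 to 0.45) and Slc1a2 had 4544 and 5763 (0.32, interval 0.26 to 0.38). Glul and Oat had log2 ratios of 0.10 and 0.12. For Lgr5 (175 and 172 reads), Rhbg (175 and 150) and Tbx3 (869 and 911) the intervals of the difference included 0 and reached from -0.57 to 0.26.

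Relative to SD, the HFD plus JT003 library had Cyp1a2 at 1.30, Cyp2e1 at 0.90, Slc1a2 at 0.76 and Lgr5 at 2.05 on the log2 scale. Oat was at -1.05 and Axin2 at -0.64. Among the 15 other pericentral genes Cyp2a5 (6101 to 17345 reads), Cyp7a1 (781 to 2160) and Nr1i3, the nuclear receptor CAR (2139 to 5387), were called higher with JT003 over HFD and none lower. The periportal gene Sds was called lower (1926 to 973). Of the markers of other cells Col1a1 was called lower (899 to 343) and Krt19 higher (7 to 39). No gene of the 5 Wnt pathway lists was called.

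The control libraries themselves differed. In corn oil over SD, 3 of the 9 members were called higher and none lower, where 2.24% of 17018 genes tested were called higher and 3.27% lower. Rhbg had 75 reads in SD and 200 in corn oil (1.54, interval 1.18 to 1.97), Lgr5 had 37 and 85 (1.30, interval 0.78 to 1.95) and Cyp1a2 had 3545 and 6742 (1.08, interval 1.02 to 1.14). For these 3 genes SD was the lowest of all 6 libraries, and it was the denominator of the HFD comparison. Corn oil, the denominator of the CCl4 comparison, was the highest of all 6 for Rhbg. In CCl4, Rhbg had 86 reads and Lgr5 54, both above SD. Axin2 was lower in corn oil than in SD without a call (log2 ratio -0.66, interval -0.93 to -0.40). The 15 other pericentral genes had a median of 0.72 in corn oil over SD, with 12 positive, and Cyp2a5 (670 to 4395 reads) and Cyp7a1 (339 to 1387) were called higher. Of 5 macrophage markers 4 were called lower in corn oil, with a median of -1.63, and corn oil was the denominator of the CCl4 comparison. Ccnd1 was also called lower in corn oil (963 to 300 reads, log2 ratio -1.53). Glul, with a log2 ratio of -0.13, and Oat, with 0.22, were closer. Diet, injection, time in the experiment and sampling of these control groups cannot be told apart here.

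Genes with the most similar profile were sought for Glul, Cyp2e1 and Axin2 among 7698 genes with a mean of at least 10 CPM. Similarity was the Euclidean distance between log2 CPM centred over the 6 libraries. Nearest to Glul were Npr2 (distance 0.48), Slco1a1 (0.48) and Mup21 (0.62), where the profile of Glul itself had a length of 3.95. Npr2, for example, had 14.60, 25.37, 32.48, 14.66, 2.12 and 3.28 FPKM in SD, HFD, HFD plus JT003, corn oil, CCl4 and CCl4 plus JT003. Nearest to Cyp2e1 were Sult2a8 (0.25), Ces3b (0.69) and Mup3 (0.70), and Sult2a8 had 65.93 FPKM in CCl4 and 139.38 in CCl4 plus JT003. Nearest to Axin2 were Epha2 (0.12), Rhpn2 (0.29) and Mfsd7c (0.32), and Epha2 ranged from 5.15 FPKM in HFD to 14.00 in CCl4. None of these genes belonged to a list above. Mup21 and Mup3 belong to a gene family, and whether their reads were split between family members was not examined.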

How the data were processed

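Total RNA of liver was sequenced by the authors on BGISEQ-500. The submitters' processing notes name HISAT, Bowtie2 and RSEM and the build mm9, with versions not given in the sources used here. The deposited gene tables hold RSEM expected counts, which need not be whole where reads were shared between genes, the FPKM the authors derived from them, and an estimated transcript length. The authors' comparison tables hold fold changes and p-values, which were not used, and of their expression columns only the pooled CCl4 expected counts were used, while 7 were left aside.

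Expected counts were rounded. Libraries of a model were scaled with TMM factors (edgeR 4.0.16, R 4.3.3), and reads of 2 libraries were compared by an exact binomial test conditional on their sum (two-sided, scipy 1.17.1), adjusted by Benjamini-Hochberg over genes with a read in either. Log2 ratios used a prior count of 2. The binomial test was checked on simulated counts drawn with counting error only, which cannot show how it behaves with spread between mice. Alternatives were DESeq2 1.42.0 size factors, total reads, pan-hepatocyte scaling, count filters, other thresholds, edgeR's exact test with an assumed spread, FPKM, and the pooled counts. Depth is given in the report, and each condition had 1 library.

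The members, the 14 gene lists (115 of 116 symbols matched) and the tests were chosen with earlier results of these data known. Named were the members, the hepatocyte and Wnt genes of the lists called in 1 of the 4 model comparisons, examples of the called markers of other cells (the rest are counted), and the 3 nearest genes of Glul, Cyp2e1 and Axin2. Cd3e, Ctnnb1, Alb, Apoa1, Hnf4a and Cebpa were named outside this rule.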

Additional observations from a re-analysis of the deposited data

Results flagged for a closer look

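For several members the log2 ratio had opposite signs in the diet and CCl4 models. The difference was not tested, since each condition had 1 library. Glul was at 0.43 with HFD over SD and -3.21 with CCl4 over corn oil, and Cyp2e1 was at 0.36 and -2.24. Slc1a2 was at 0.44 and -9.03, Rhbg at 1.11 and -1.48, and Lgr5 at 2.09 and -0.92. Axin2 had the reverse pattern, at -1.43 and 0.66. The models have separate controls, which differed for Rhbg, Lgr5 and Axin2. Rhbg had 75 reads in SD, 200 in corn oil and 86 in CCl4. For Lgr5 these were 37, 85 and 54, and for Axin2 334, 190 and 367. How far the opposite signs of these genes rest on the controls was not tested.

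With JT003 the signs were opposite for 3 members, again untested. Cyp1a2 was at 0.40 in HFD plus JT003 over HFD and -0.82 in CCl4 plus JT003 over CCl4, Axin2 at 0.79 and -0.78, and Oat at 0.12 and -0.22.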

How the results depend on the processing

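No member's log2 ratio turned sign where it was called. Of 666 recomputed values of single members, 599 kept their side of the threshold, 31 lost the call and 36 gained one. Without the fold threshold 9 members were called for HFD over SD, 6 for HFD plus JT003 over HFD, 9 for CCl4 over corn oil, 7 for CCl4 plus JT003 over CCl4 and 8 for corn oil over SD. This setting called 4003 of 16973 genes tested, 2445 of 17090, 4531 of 17234, 4199 of 17393 and 4929 of 17018, in that order. When edgeR's exact test was given a coefficient of variation of 0.2, 0 members were called for HFD over SD, CCl4 plus JT003 over CCl4 and corn oil over SD. Over all genes 179, 165 and 105 were called at 0.2. At 0.4 the member counts of these 3 comparisons were again 0, and 2 members were called for CCl4 over corn oil. Over all genes 11, 0 and 6 were called at 0.4, and 59 for CCl4 over corn oil. For CCl4 plus JT003 over CCl4, 2 members were called with total reads, with pan-hepatocyte scaling, with log2(FPKM + 0.1), with the pooled CCl4 counts and with the pooled counts less the CCl4 library, and 0 with at least 100 counts, where Slc1a2 was not tested. Over all genes these settings called 802, 942, 1550, 744, 818 and 531, in that order. For corn oil over SD, log2(FPKM + 1) gave 1 member, and 509 genes over all. For HFD over SD, Cyp1a2 was past the fold threshold with total reads.

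Scaling by total reads moved the median log2 ratio of all genes to 0.12 for HFD over SD and 0.23 for CCl4 over corn oil, and pan-hepatocyte scaling moved it to 0.21 for CCl4 plus JT003 over CCl4 and -0.17 for corn oil over SD. The share of calls that were higher went from 54.3% to 65.7%, from 66.1% to 81.7%, from 42.8% to 67.8% and from 40.7% to 20.2%, in that order. Relative to the pan-hepatocyte median, an alternative chosen after seeing the data, the other pericentral genes had a median of -0.41 and the periportal genes -0.03 for CCl4 over corn oil. With the pooled counts less the CCl4 library, also chosen after seeing the data, these were -0.66 and -0.64, so the difference between the lists was not seen there. No paired analysis was possible because each condition had 1 library, and for the same reason no replicate could be left out. At 6 to 54 reads, Slc1a2 and Lgr5 in the CCl4 libraries are limited by depth.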
